A study of Apis mellifera with 9 samples.

Results

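Vitellogenin was followed in honey bee (Apis mellifera) larvae as the single feature GB49544-RA, 1 of 15314 features in a table of RNA-seq read counts. It was chosen by its identifier in the honey bee official gene set and not by a rule on its values. Earlier results of these data were known when it was chosen. Neither the count table nor the reference gene table used here pairs this identifier with a gene name, so the name rests on the identifier alone and no value below checks it. The larvae were reared in the laboratory for 3 days on a semi-artificial diet of royal jelly, glucose, fructose and yeast extract. The diet held no quercetin (control), 0.1 mM quercetin or 0.25 mM quercetin, and each diet had 3 libraries from separate replications of 10 to 12 larvae that were newly emerged when grafted. All larvae came from 1 bee research facility. The labels give whole larvae as the source and midguts in the extraction step, and markers of fat body or gut could not be looked up without gene names, so the tissue behind each library is not settled. Over all features tested, 0.25 mM libraries b and c stood apart, at 41.7 and 40.8 in principal component 1 of the log2 values, while 0.25 mM library a lay at 1.47, the 0.1 mM libraries between -11.3 and -0.646 and the controls between -25.1 and -19.6.

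Vitellogenin is the yolk precursor of egg-laying animals, a large lipid-binding glycoprotein that the insect fat body makes and secretes into the haemolymph, from where the ovary takes it up. In the honey bee it is also abundant in sterile workers, where it feeds the production of brood food, stores amino acids and zinc, and is tied to juvenile hormone in a mutual inhibition that is linked to the age at which workers begin to forage. It is studied there as an antioxidant and as a carrier of immune-related molecules as well. These functions are known mainly from adult bees. Quercetin is a plant flavonol that bees take in with pollen, nectar and honey.

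Vitellogenin was a transcript of middling to low abundance in these larvae, and neither dose of quercetin gave a level that could be told from control. Levels are in CPM, the count of a feature scaled to a fixed total of reads on features. In control larvae it stood at 29.5, 4.03 and 9.15 CPM in replicates 1, 2 and 3. At 0.1 mM quercetin it stood at 9.79, 7.74 and 12.9 CPM in replicates 1, 2 and 3. At 0.25 mM it stood at 11.0, 8.36 and 7.66 CPM in libraries a, b and c. These letters are names only, given because the 3 columns of this diet carry identical headings. Each heading ends in replicate 3, so it gives the diet but does not tie a column to a numbered replication. The highest and the lowest of the 9 values were both controls, and all 6 quercetin libraries lay between them. The means were 14.2 ± 13.5 CPM in control, 10.1 ± 2.61 CPM at 0.1 mM and 9.02 ± 1.78 CPM at 0.25 mM (SD, n = 3 each). The medians, 9.15, 9.79 and 8.36 CPM in the same order, lay closer together and did not follow the order of the means.

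**Figure D1:**
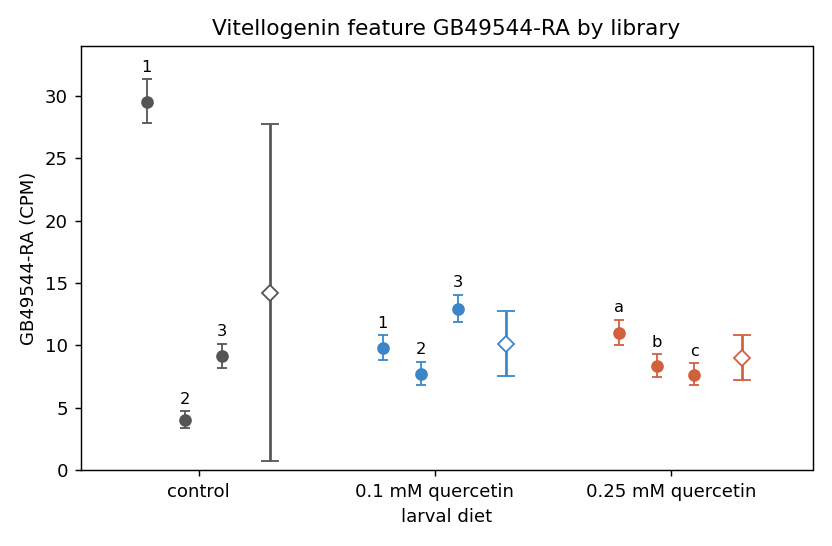
Level of GB49544-RA in CPM in each library, by diet. Filled points are libraries with exact 95% Poisson intervals, which cover counting error only, and open diamonds are diet means with their SD (n = 3); the 6 quercetin libraries sit between 7.66 and 12.9 CPM, inside the span of the controls from 4.03 to 29.5 CPM.

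Control replicate 1 held 1101 reads of the feature, control replicate 2 held 139 and control replicate 3 held 360. The quercetin libraries held 370, 277 and 531 reads at 0.1 mM and 473, 342 and 299 reads at 0.25 mM. The exact 95% Poisson interval was 27.8 to 31.3 CPM in control 1 and 3.39 to 4.76 CPM in control 2, so these 2 controls differed by far more than counting error. Control replicate 3, at 8.23 to 10.1 CPM, lay apart from both. Intervals were also apart within the quercetin diets. At 0.1 mM, replicate 3 (11.85 to 14.07 CPM), replicate 1 (8.82 to 10.8 CPM) and replicate 2 (6.85 to 8.70 CPM) all lay apart from each other. At 0.25 mM, library a (10.06 to 12.07 CPM) lay apart from library b (7.50 to 9.29 CPM) and library c (6.81 to 8.58 CPM). Some pairs overlapped, such as libraries b and c, or 0.1 mM replicate 1 and control replicate 3. The libraries held 34456449 to 42874091 reads on features, of which vitellogenin took 0.000403% to 0.00295%.

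Ranked from the most abundant of the 15314 features, vitellogenin stood at place 4976 in control replicate 1, 8326 in control 2 and 7348 in control 3. It stood at places 7195, 7576 and 6861 in the 0.1 mM libraries, and at 6953, 7388 and 7469 in the 0.25 mM libraries a, b and c. The rank of its mean was 6628 in control, 7215 at 0.1 mM, 7281 at 0.25 mM and 7044 over all 9 libraries, which is 46.0% of the way down the list. Among features with at least 1 read the median level was 13.6 to 15.3 CPM per library, and vitellogenin lay below that median in every library except control replicate 1. CPM values are not divided by transcript length, and feature lengths were not used here, so a place in this list orders read numbers and not molecules.

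At 0.25 mM quercetin against control, the fitted log2 fold change of vitellogenin was -0.57 ± 0.554 (± SE), with a 95% interval from -1.82 to 0.67 (edgeR quasi-likelihood test, adjusted p = 0.43). It was not called, while 35.6% of the 11508 features tested were called in this comparison, in either direction. That share depended on the 0.25 mM libraries: it was 56% without library a, 13.6% without library b and 9.61% without library c. On the linear scale the interval ran from 0.284 to 1.59 times the control level, so neither a 2-fold decrease nor a 1.59-fold increase is excluded. Mean CPM differed by -5.22, 0.25 mM minus control, which did not exceed the spread between libraries: a two-sided exact permutation test gave p = 0.8, and 3 libraries against 3 cannot go below 0.1. With limma-voom the log2 fold change was -0.15 (limma, adjusted p = 0.846). In bulk samples of this kind, fewer cells that make a transcript and less of it per cell cannot be told apart.

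At 0.1 mM against control, the log2 fold change was -0.48 ± 0.553, with a 95% interval from -1.72 to 0.76 (edgeR quasi-likelihood test, adjusted p = 0.831). Vitellogenin was not called, and 0.0695% of all features tested were. Mean CPM differed by -4.08, 0.1 mM minus control, and the two-sided exact permutation test gave p = 0.9. With limma-voom the log2 fold change was -0.06 (limma, adjusted p = 0.982), and the mean log2 CPM differed by -0.05. The 3 controls are shared by the comparisons of both doses, so these differences are not independent of each other.

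Between the doses, vitellogenin differed by -0.09 ± 0.557 on the log2 scale, 0.25 mM minus 0.1 mM, with a 95% interval from -1.34 to 1.16 (edgeR quasi-likelihood test, adjusted p = 0.918). The spread behind this interval was estimated from all 9 libraries, the widely spread controls included. Fitted on only the 6 libraries compared, the difference was -0.09 ± 0.21. Its 95% interval then ran from -0.587 to 0.400 (edgeR quasi-likelihood test, adjusted p = 0.78). Mean CPM differed by -1.13, 0.25 mM minus 0.1 mM, and the two-sided exact permutation test gave p = 0.6. The libraries of the 2 doses overlapped: 0.25 mM spanned 7.66 to 11.0 CPM and 0.1 mM spanned 7.74 to 12.9 CPM. Library a was the highest of the 0.25 mM diet for vitellogenin, and both a and b fell inside the 0.1 mM range. With all 9 libraries, no feature at all, 0%, was called between the doses by the quasi-likelihood test. In that fit 3925 of 11508 had an unadjusted p under 0.05. On the same libraries DESeq2 called 2111, limma-voom 0 and the likelihood ratio test of edgeR 1524.

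Over the 3 doses taken as numbers, the fitted change of vitellogenin over 0.25 mM was -0.54 ± 0.52 on the log2 scale, with a 95% interval from -1.70 to 0.61 (slope tested by edgeR's quasi-likelihood method, adjusted p = 0.42). A trend was called in 38.4% of all features tested. That share was 51.6% without 0.25 mM library a, 18.2% without library b and 14.2% without library c. Permuting the diets over the 9 libraries gave p = 0.538 for the slope of CPM on dose (two-sided exact permutation test over 1680 arrangements). In descending order of the mean the diets stood as control, 0.1 mM and 0.25 mM, and no step in that order exceeded the spread between libraries.

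The sign of both differences from control rested on control replicate 1. Without it, the mean of the remaining controls was 6.59 CPM, and the log2 fold change became 0.51 at 0.25 mM against control (95% interval -0.26 to 1.29; edgeR, adjusted p = 0.268) and 0.61 at 0.1 mM against control (-0.17 to 1.38; edgeR, adjusted p = 0.723). The slope over 0.25 mM turned to 0.37 (edgeR, adjusted p = 0.422). Without control replicate 2, the lowest library, the log2 fold changes were -1.01 at 0.25 mM (95% interval -1.96 to -0.06; edgeR, adjusted p = 0.113) and -0.92 at 0.1 mM (-1.87 to 0.04; edgeR, adjusted p = 0.95). Without control replicate 3, the values were -0.81 at 0.25 mM and -0.71 at 0.1 mM. Vitellogenin was not called in any of these fits. With library a as the only one of its diet, the log2 fold change at 0.25 mM against control was -0.26 (95% interval -2.21 to 1.69; edgeR, adjusted p = 0.889), the spread of the lone library being assumed equal to that of the others. Between the doses the sign turned as well, to 0.08 without 0.1 mM replicate 3 and to 0.02 without 0.25 mM library c.

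**Figure D2:**
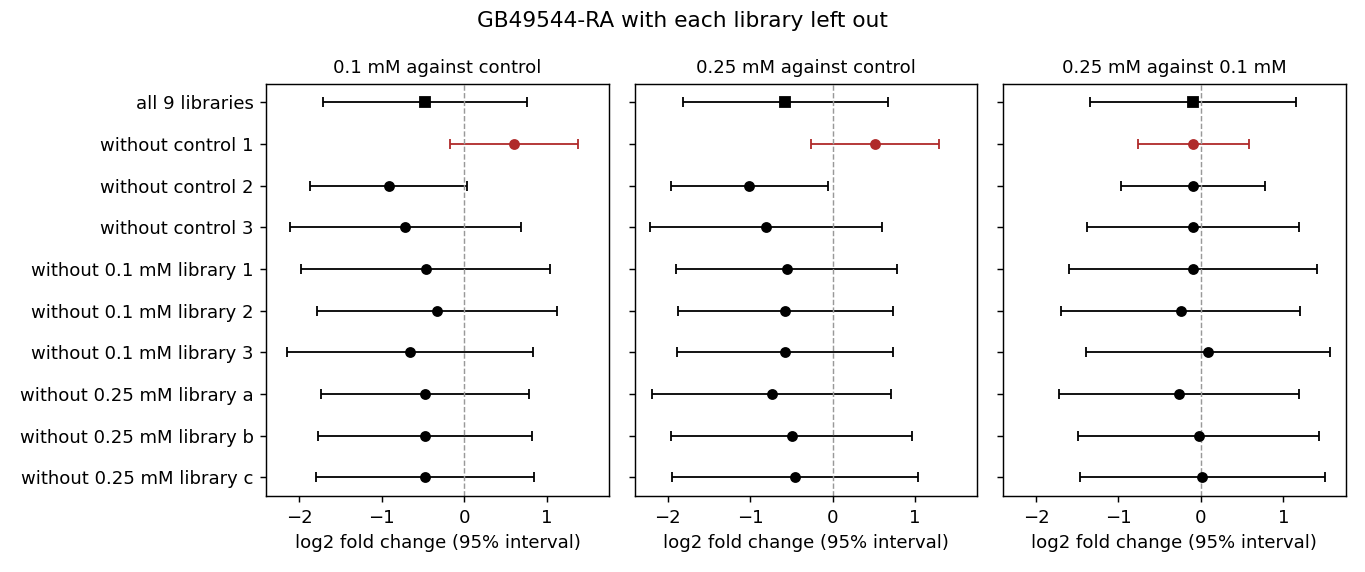
Log2 fold change of GB49544-RA with its 95% interval in 3 comparisons, from all 9 libraries (square) and with each library left out (circles; red, without control 1). Against control, the value moved from below 0 to 0.61 at 0.1 mM and 0.51 at 0.25 mM only when control 1 was left out.

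The spread of vitellogenin among the controls was wide beside that of most features. The SD of its log2 CPM over the 3 control libraries was 1.42, beside a median of 0.101 and a 90th percentile of 0.328 over the 11508 features tested, and only 10 features had a larger one. Over the 0.1 mM libraries its SD was 0.329, with 1138 features or 9.89% above it. Over the 0.25 mM libraries it was 0.284, with 3334 features or 29.0% above it and a median of 0.185 over all features. At 0.1 mM its SD thus lay just above the 90th percentile of all features, 0.328, and their median was 0.0975. At 0.25 mM it lay below the 90th percentile, 0.467. Whether the spread differed between control and quercetin larvae was not tested. Fitted over all 9 libraries, its biological coefficient of variation was 0.463, against 0.143 on the trend at its abundance, and 73 features had a larger one. The standard error of its log2 fold change at 0.25 mM against control, 0.554, stood beside a median of 0.127 over all features.

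**Figure D3:**
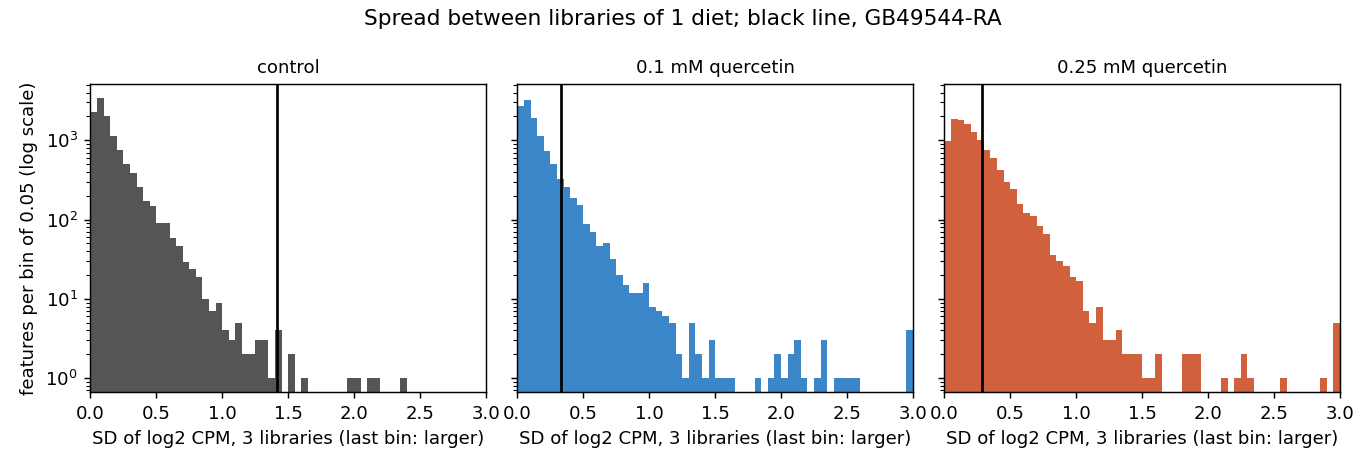
Histograms of the SD of log2 CPM between the 3 libraries of each diet, for the 11508 features tested, with a logarithmic count axis and values above 3 in the last bin. The black line marks GB49544-RA, at 1.42 in control, 0.329 at 0.1 mM and 0.284 at 0.25 mM.

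Pair by pair, control replicate 1 exceeded control replicate 2 by 2.82 in TMM-scaled log2 CPM, or 7.08-fold. The unscaled CPM values of 29.5 and 4.03 give a ratio of 7.32. Of all 11508 features, none had a larger excess of control 1 over control 2, and the next one stood at 2.71. In either direction 7 features differed more between these 2 libraries, so that vitellogenin held place 8, while the median absolute difference was 0.135 and 98.2% of features lay within 2-fold. Control 1 also exceeded control 3 by 1.66 (place 29 in absolute size), and control 2 lay 1.17 below control 3 (place 87). Among the quercetin libraries, the widest pair of 1 diet was 0.1 mM replicates 2 and 3, with a difference of -0.66 and place 486. At 0.25 mM the widest was library a over c, by 0.54 and at place 2141.

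The profile of vitellogenin over the 9 libraries was set beside those of other features. Likeness was the Pearson correlation of log2 CPM, over 7212 other features with a mean of at least 10 CPM, given as a description, since the libraries share diets and the values at control 1 and 2 weigh heavily in it. A correlation of 0.8 or more was found for 14 of them and one of -0.8 or less for 20. Such counts were not made for other features, so whether 14 and 20 are few or many for 9 libraries was not tested. The most alike was GB50694-RA, with r = 0.903, at 36.5, 27.4 and 30.3 CPM in control replicates 1, 2 and 3, after scaling by TMM factors. GB52702-RA followed with r = 0.862, at 255, 144 and 185 CPM in the same controls. The most opposite were GB45629-RA, with r = -0.959 and 275, 337 and 317 CPM in the controls, and GB47724-RA, with r = -0.917 and 62.4, 75.8 and 70.3 CPM.

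These 4 features moved far less than vitellogenin. The highest library was 1.33 times the lowest for GB50694-RA, 1.79 times for GB52702-RA, 1.23 times for GB45629-RA and 1.22 times for GB47724-RA, against 7.16 times for GB49544-RA on the same scale. Without control replicate 1, the correlations of GB50694-RA and GB52702-RA with vitellogenin were 0.908 and 0.75, and those of GB45629-RA and GB47724-RA were -0.916 and -0.783. Because the 4 features were picked by their correlation over all 9 libraries, these values are no separate check of the likeness. The 4 features follow a profile in which the widest differences lie within the control diet, so their changes between diets are given as values only. At 0.25 mM against control the log2 fold changes were 0.07 for GB50694-RA, -0.02 for GB52702-RA, -0.01 for GB45629-RA and 0.06 for GB47724-RA (edgeR, adjusted p between 0.526 and 0.95).

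**Figure D4:**
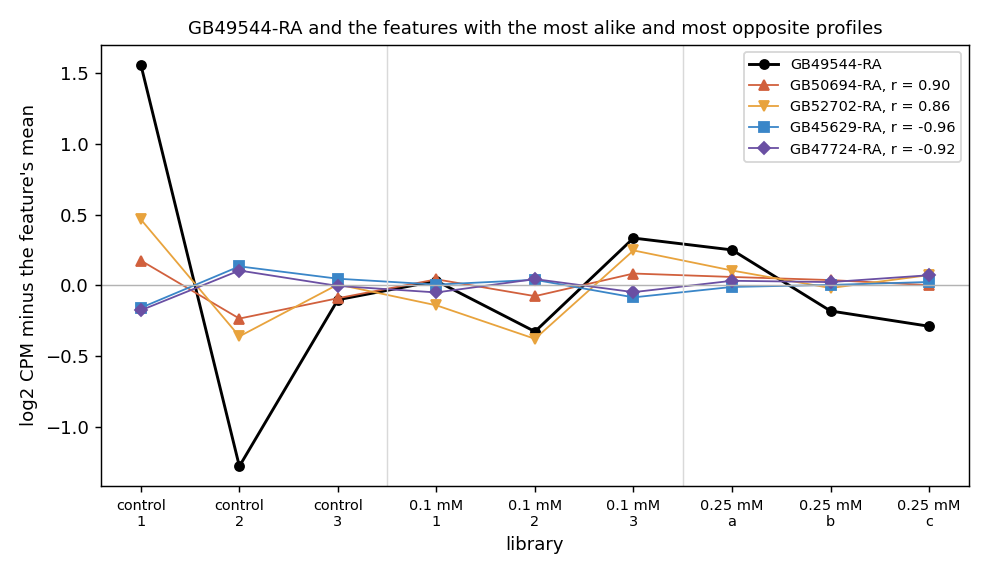
Log2 CPM (TMM-scaled) of GB49544-RA and of the 4 named features in each library, minus the feature's own mean over the 9 libraries. Black circles are GB49544-RA, the 2 warm-coloured lines the features with the highest correlation and the 2 cool-coloured lines those with the lowest; GB49544-RA spans 7.16-fold and the others at most 1.79-fold.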

How the data were processed

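The deposited file holds raw counts of reads for each of 15314 GB features, without normalisation, and ends with 5 bookkeeping lines that stayed out of library sizes and tests: 12.1% to 13.8% of reads fell on no feature, 3.03% to 3.58% were ambiguous and 17.1% to 18.4% unaligned. The submitters' processing notes list CASAVA 1.8, HTSeq and edgeR with no roles. Aligner, genome build and strand setting: not given in the sources used here. Overlapping and antisense genes can therefore not be told apart. The reference table of 12398 genes matched 0 of the 15314 identifiers, so planned lists of fat body, midgut and hormone pathway genes were not evaluated.

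Columns were assigned by their headings. The replications are labelled independent with no colony named, so a p-value here reflects only the spread between these libraries. CPM is the count over the sum of GB rows. In R 4.3.3, edgeR 4.0.16 kept 11508 features (filterByExpr), scaled by TMM and fitted a quasi-likelihood model to all 9 libraries, with Benjamini-Hochberg adjustment over all features and a threshold of 0.05. Standard errors were derived from each fold change with its F statistic. The SDs, pair differences, gaps and correlations of log2 CPM used TMM scaling and a prior count of 2. The plotted profiles of the named features used TMM scaling and no prior count. The difference in mean log2 CPM at 0.1 mM used neither. Alternatives used DESeq2 1.42.0 and limma 3.58.1. The script was tested on simulated data. Named features are GB49544-RA, the 2 with the highest and the 2 with the lowest correlation with it. The member and the rules were chosen with earlier results of these data known.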

Additional observations from a re-analysis of the deposited data

How the results depend on the processing

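In the 80 alternative fits of the 4 log2 changes of vitellogenin, 0 gave an adjusted p under 0.05. With 1 library left out, the log2 fold change ran from -1.01 to 0.51 at 0.25 mM against control, from -0.92 to 0.61 at 0.1 mM against control, from -0.265 to 0.0834 between the doses, and from -0.89 to 0.37 for the trend. The signs against control and of the trend turned only without control replicate 1. Without 0.25 mM libraries b and c together, the value between the doses was 0.21. Scaling, filter and tool turned no sign. They gave -0.66 to -0.15 at 0.25 mM against control, -0.49 to -0.06 at 0.1 mM against control and -0.63 to -0.15 for the trend, and limma-voom gave the value nearest to 0 in these 3; the cause was not tested. Leaving out the 20 most abundant features raised the mean to 12.8 CPM at 0.1 mM and 11.8 CPM at 0.25 mM (control 17.8 CPM), since the library totals became smaller. With 1 library left out, the mean ran from 6.59 to 19.3 CPM in control, from 8.76 to 11.4 CPM at 0.1 mM and from 8.01 to 9.70 CPM at 0.25 mM. TMM-scaled CPM, added after the data were seen, gave permutation p-values of 0.8, 0.9, 0.8 and 0.583 in exact tests of 0.25 mM against control, 0.1 mM against control, the doses and the trend. The replicate number as a block could be used only for 0.1 mM and control, and gave -0.10 (edgeR, adjusted p = 0.939) and 23 called features. Same-numbered libraries correlated in their deviations with r = -0.0818, 0.0994 and -0.123, and differently numbered ones with r from -0.1365 to 0.2331. With 3 libraries a diet, these values cannot settle whether the numbers pair the libraries. The number of features called at 0.25 mM against control ran from 82 without libraries b and c to 6491 without library a, beside 4099 with all libraries. At 0.1 mM it ran from 0 to 147, beside 8. Between the doses it ran from 0 to 5367, beside 0. For the trend it ran from 162 to 5982, beside 4417.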

Other observations

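The 11 features with the widest spread among the controls, vitellogenin included, did not share its order. Control replicate 1 was the highest of the 3 controls in 2 of them, and control replicate 2 the lowest in 3. Vitellogenin was the only 1 of the 11 in which control 1 was the highest and control 2 the lowest of all 9 libraries, an order found in 81 of the 11508 features tested. Control 1 was the highest library in 10.9% of all features and the lowest in 10.8%. Control 2 was the highest in 17.4% and the lowest in 17.0%. Over the 9 libraries, these shares ran from 4.34% to 21.8% for the highest and from 4.13% to 24.4% for the lowest. In vitellogenin the highest library stood 2.28 times above the next one, 0.1 mM replicate 3. A gap at least as wide on the log2 scale was found in 11 features including vitellogenin, and control 1 was the highest library in 2 of these.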
